A study of Mus musculus with 564 samples.

Results

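Midostaurin and X396 are 2 of the 58 clinical kinase inhibitors (CKIs) with which mouse macrophages were treated. Their libraries were taken by compound name: every measured column whose name opens with Midostaurin or X396 was used, which gave 9 libraries for each compound and 18 of the 564 libraries in all. The cells were bone marrow-derived macrophages (BMDMs) grown from the marrow of wild type male C57/BL6 mice. They were pre-treated for 1 h with a CKI or with its solvent, DMSO, and then left unstimulated (UT) or exposed to 10 ng/mL of lipopolysaccharide (LPS), a bacterial cell wall component that activates TLR4, or to 10 ng/mL of interleukin 4 (IL-4). Acetylation of histone H3 at lysine 27 (H3K27ac), which marks active promoters and enhancers, was then measured by ChIP-seq. Stimulated cells were collected at 30 min, 1 h, 2 h or 4 h. The UT samples carry time 0 in their titles and 4 h without stimulus in their treatment label.

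Midostaurin and X396 each had 1 library in each of these 9 conditions, and DMSO had 2. All the cells shared the wild type genotype and the solvent. Each CKI was used at a concentration of its own, so Midostaurin and X396 are set side by side and the difference between them was not tested. The labels do not say whether libraries came from separate cultures or animals. The p-values rest on the spread of the libraries of all compounds around an average per compound and per time. With 1 library in each condition, the times of a compound stand in for replicates of it. That spread may be technical.

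Midostaurin is a staurosporine-type compound that is in clinical use against leukaemia with mutant FLT3 and against mastocytosis. It binds protein kinase C, FLT3, KIT and many other kinases, and the study used it for its affinity to TBK1, the kinase that phosphorylates the transcription factor IRF3 downstream of TLR4. X396 was developed as an inhibitor of the receptor tyrosine kinase ALK, and the study used it for its affinity to MAP3K1 and MAP4K2, kinases upstream of the JNK and p38 cascades. In macrophages exposed to LPS, IRF3 and NF-kB switch on Ifnb1, the gene of interferon beta. Secreted interferon beta then acts through its receptor on a large set of interferon-stimulated genes. IL-4 acts through JAK kinases and STAT6, and its receptor also feeds the PI3 kinase and MEK-ERK branches.

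The deposited table holds a normalized read count for each of 59190 cis-regulatory elements (CREs). The 18 libraries differed from DMSO in depth and in contrast, for which the median of the 10% of CREs with the highest values is divided by that of the 10% with the lowest. Contrast was 7.97 to 55 for Midostaurin (median 32.4) and 5.47 to 15.6 for X396 (median 9.38), against 53 to 134 for DMSO and 3.34 to 67.2 for the 528 libraries of the other 56 CKIs (median 17.7). Ranked by median contrast, X396 was number 2 from the lowest of 58 CKIs and Midostaurin number 49. The reads in CREs, estimated from the spacing of the values, came to 0.569 to 1.31 M reads (M, mega) for X396, 1.47 to 5.15 M for 8 Midostaurin libraries and 2.35 to 5.41 M for 16 DMSO libraries. The columns of the CKIs stand in 6 runs in the table, and the 9 other CKIs in the run of X396 had a median contrast of 12.4 and a median of 0.893 M reads, against 18.6 and 2.85 M in the run of Midostaurin. The DMSO columns stand apart from these runs, so the CKIs and whatever else separates the 2 kinds of library cannot be told apart in a comparison with DMSO. Each compound was therefore also compared with the other CKIs together and with the 9 others of its own run.

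**Figure D1:**
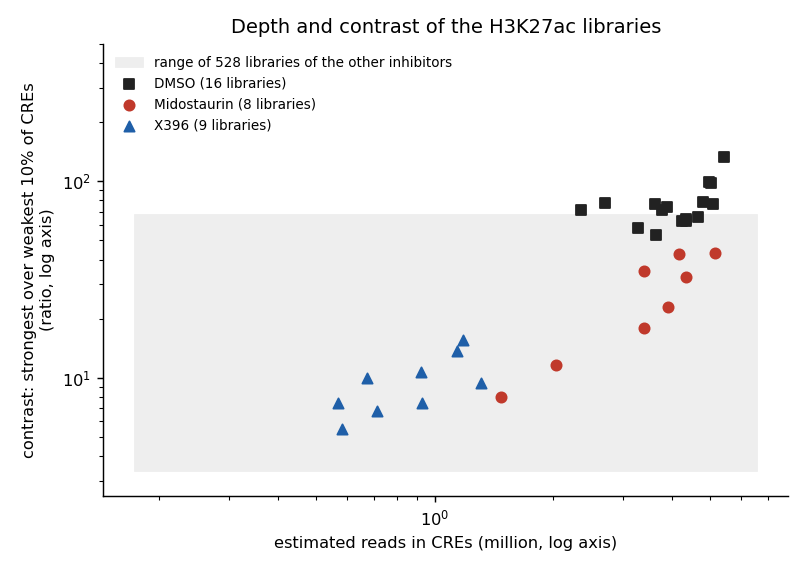
Contrast of each library (ratio, log axis) against its estimated reads in CREs (M, log axis) for DMSO, Midostaurin and X396, with the range of the other inhibitors in grey. Each point is 1 library; the X396 libraries lie at 0.569 to 1.31 M reads and contrasts of 5.47 to 15.6, below all DMSO libraries on both axes.

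For each compound the 4 libraries of a stimulus and the UT library were compared with DMSO, or with the other CKIs, by limma on log2(normalized read count + 5), with time as a factor. A log2 difference is therefore 1 value averaged over UT and the 4 times. A CRE was called at an adjusted p under 0.05 (Benjamini-Hochberg over all CREs tested) and a log2 difference over 0.5 in size. A gene stands for the strongest CRE within 1 kb of a start of its transcripts, on the mm10 build. The LPS and IL-4 comparisons of a compound share its UT library, and all comparisons with DMSO share the DMSO libraries.

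Genes of the interferon response come first, since the study chose Midostaurin for TBK1. Promoters of this group often carry the sequence that IRF factors bind, a pair of GAAA separated by NN (any 2 bases), and it was looked for on both strands, as TTTC on the other one, in the 250 bases before each start (RefSeq, GRCm38.p6; overlapping matches counted). It was present in 978 of 32851 windows (2.98%). Among lists of genes written for this work it was in 7 of the 17 interferon-stimulated genes with an entry (41.2%), in 4 of 7 genes of the interferon beta axis (57.1%), in 0 of 17 NF-kB targets, in 0 of 14 immediate early genes and in 1 of 17 IL-4 and STAT6 targets (5.88%). The promoters of 4 genes with a match are shown, and their acetylation is followed by library in the next paragraphs. The windows of Ifnb1, Ifih1 and Isg20, which are also named below, hold 0 matches and are not printed. Capitals mark the motif in either orientation. The window of Ifit3 (chr19:34583279-34583528, + strand) holds 2 matches, that of Isg15 (chr4:156200819-156201068, - strand) 3 that overlap, that of Ifit1 (chr19:34640639-34640888, + strand) 2 and that of Rsad2 (chr12:26456453-26456702, - strand) 1. A match is a string of letters and not a measured binding site.
Ifit3: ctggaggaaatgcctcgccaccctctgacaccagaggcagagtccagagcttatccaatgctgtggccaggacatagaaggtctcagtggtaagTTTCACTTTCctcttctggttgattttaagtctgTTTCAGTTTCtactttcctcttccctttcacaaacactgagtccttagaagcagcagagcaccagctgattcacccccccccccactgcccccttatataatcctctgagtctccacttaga
Isg15: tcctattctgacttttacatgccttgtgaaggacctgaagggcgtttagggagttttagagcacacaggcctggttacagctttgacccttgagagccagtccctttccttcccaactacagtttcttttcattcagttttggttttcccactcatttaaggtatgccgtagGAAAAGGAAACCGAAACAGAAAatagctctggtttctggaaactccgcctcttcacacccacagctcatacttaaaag
Ifit1: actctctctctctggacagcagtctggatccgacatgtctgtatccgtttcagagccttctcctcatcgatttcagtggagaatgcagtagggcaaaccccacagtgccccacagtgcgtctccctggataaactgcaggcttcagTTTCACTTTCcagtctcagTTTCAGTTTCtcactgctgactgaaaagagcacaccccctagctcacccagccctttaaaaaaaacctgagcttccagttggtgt
Rsad2: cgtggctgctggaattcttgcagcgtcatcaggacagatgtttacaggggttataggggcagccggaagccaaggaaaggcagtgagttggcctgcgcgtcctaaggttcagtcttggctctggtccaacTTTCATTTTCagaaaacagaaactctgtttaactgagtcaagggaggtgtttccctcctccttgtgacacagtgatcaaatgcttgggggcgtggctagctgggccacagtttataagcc

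At Ifnb1 itself (chr4:88522030-88524302) the 2 DMSO libraries held normalized read counts of 31 and 30 in UT cells, 223 and 273 at 30 min of LPS, 472 and 423 at 1 h, 402 and 301 at 2 h, and 205 and 179 at 4 h. Midostaurin gave 79 in UT cells and then 124, 341, 263 and 106. X396 gave 34 and then 274, 355, 186 and 194. Midostaurin was thus above both DMSO libraries in UT cells and below both at each of the 4 times after LPS, while X396 was level with the higher of them at 30 min, between them at 4 h and below both at 1 h and 2 h. Averaged over UT and the 4 times neither difference passed the test: the log2 difference from DMSO was -0.27 for Midostaurin (adjusted p = 0.41) and -0.18 for X396 (adjusted p = 0.55). For Midostaurin this average sets a higher UT value against lower values after LPS. Over the 4 times after LPS alone its mean log2 difference from DMSO was -0.65, with a range of -0.97 to -0.39, given here without a test.

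The genes that respond to interferon beta were lower. Isg15 (chr4:156199608-156201686), which encodes a ubiquitin-like modifier, held 208 and 304, 520 and 545, 770 and 796, and 841 and 686 in the DMSO pairs at 30 min, 1 h, 2 h and 4 h of LPS. X396 gave 98, 171, 277 and 271 at these times, and Midostaurin 138, 305, 451 and 484. Both stood below every DMSO library of the same time, and X396 held the lower value at each. The log2 difference from DMSO was -1.40 for X396 (SE 0.18, adjusted p = 3.8e-11) and -0.63 for Midostaurin (SE 0.18, adjusted p = 0.0041). X396 was also lower than the other CKIs at Isg15, by -0.84 (SE 0.15, adjusted p = 3e-05), and Midostaurin did not differ by the test (-0.05, adjusted p = 1). Against the 9 other CKIs of its run the value for X396 was -0.56 with an adjusted p of 0.076.

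Ifit3 (chr19:34582032-34584207), which encodes an interferon-induced protein with antiviral activity, was likewise lower under X396. Its DMSO pairs held 124 and 160, 395 and 328, 758 and 653, and 644 and 596 after LPS, and X396 gave 118, 79, 287 and 242. The value of X396 at 1 h was below its own at 30 min, whereas both DMSO values had risen over that time. The log2 difference from DMSO was -1.38 (SE 0.30, adjusted p = 6.5e-05) and that from the other CKIs -0.86 (SE 0.25, adjusted p = 0.026). Against its run the Ifit3 difference of X396 was -0.34 (adjusted p = 0.71). Midostaurin gave 106, 197, 460 and 472 at Ifit3, a log2 difference of -0.49 from DMSO that did not pass (adjusted p = 0.19).

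The neighbouring Ifit1 (chr19:34640043-34641604) was called for both. DMSO held 107 and 148, 487 and 460, 751 and 712, and 738 and 635 after LPS, Midostaurin 62, 225, 477 and 427, and X396 108, 171, 315 and 320. The log2 difference from DMSO at Ifit1 was -0.76 for Midostaurin (SE 0.22, adjusted p = 0.0058) and -0.75 for X396 (SE 0.22, adjusted p = 0.003), and neither was called against the other CKIs (-0.22 and -0.21). With the libraries quantile normalized the differences at Ifit1 were -0.68 and -0.44 and neither was called.

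Rsad2 (chr12:26455740-26457336), the gene of the antiviral enzyme viperin, rose in DMSO from 99 and 105 at 30 min of LPS to 240 and 204 at 1 h, 290 and 323 at 2 h and 329 and 311 at 4 h. Midostaurin gave 58, 125, 181 and 255, a rise that stayed under DMSO at each time. X396 gave 108, 92, 148 and 126, and its 4 h value was less than that of either DMSO library at 1 h. The log2 differences of Rsad2 from DMSO were -0.56 for Midostaurin (SE 0.20, adjusted p = 0.025) and -0.74 for X396 (adjusted p = 0.0013). Mx1 (chr16:97460622-97464623), the gene of a GTPase that blocks virus replication, held 147 and 172, 572 and 464, 1677 and 1589, and 1950 and 1636 in DMSO. Midostaurin gave 204, 202, 1019 and 1210 at Mx1 (log2 difference -0.43, adjusted p = 0.11) and X396 157, 394, 1003 and 804 (-0.58, adjusted p = 0.020). At 1 h Midostaurin was the lower of the 2 compounds at Mx1, and at 4 h X396 was.

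**Figure D2:**
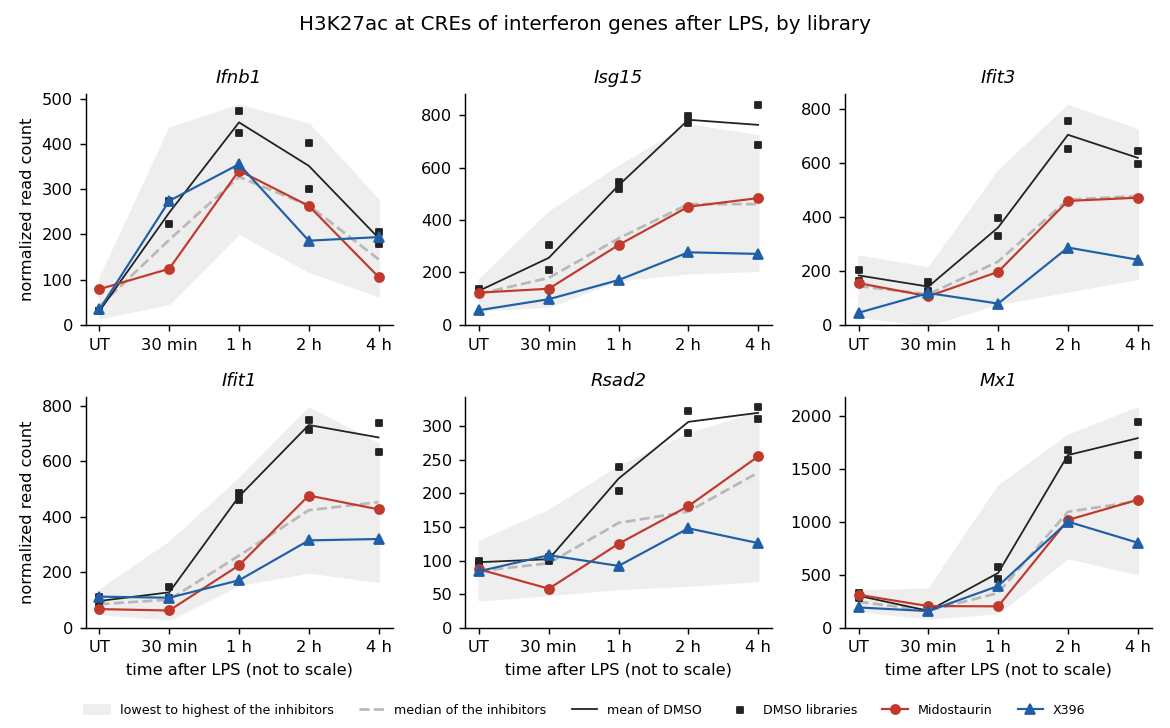
Normalized read count of 6 interferon genes in UT cells and at 4 times after LPS, with time on a category axis. Black squares are single DMSO libraries and the black line their mean, the grey band spans the lowest to the highest of the inhibitors and the dashed line their median; X396 reached 271 at Isg15 and 242 at Ifit3 at 4 h, where the DMSO libraries held 841 and 686, and 644 and 596.

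Over the list of interferon-stimulated genes, 25 of 26 had a CRE. After LPS 17 were lower than DMSO under Midostaurin and 23 under X396, and 0 were higher under either, where 2.67% and 8.35% of all CREs were lower and 30.8% and 41.5% higher. These shares depend on level: in the 10% of CREs with the highest DMSO level 14% and 39.1% were lower, and 1.17% and 0.845% higher. How many genes of the list lie in that 10% was not counted. The median log2 difference of the list was -0.55 for Midostaurin and -0.77 for X396, beside 0.42 and 0.44 over all CREs. The count for X396 stayed at 22 or 23 with any library left out. The count for Midostaurin depended on its LPS 30 min library, which had the lowest contrast (7.97) and the fewest reads (1.47 M) of its libraries and without which the count was 9. It was 12 without the LPS 1 h library and 20 without the UT library. After quantile normalization 3 genes were lower under Midostaurin and 7 under X396, where 0.783% and 6.07% of all CREs were. After IL-4 the counts were 6 lower under Midostaurin and 11 under X396, and 0 higher under either, where 1.9% and 5.38% of all CREs were lower. In the 10% with the highest DMSO level 6.64% and 21.7% were. In the interferon beta axis, the 8 measured genes around Ifnb1 itself, 2 were lower than DMSO after LPS under Midostaurin and 4 under X396.

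The genes of this list with the largest differences under Midostaurin were Ifih1, which encodes the RNA sensor MDA5, Usp18, which encodes a brake on interferon receptor signalling, and Gbp2, which encodes a guanylate-binding GTPase. Ifih1 (chr2:62644826-62647015) held 508 and 520, 645 and 652, 1017 and 977, and 935 and 980 in DMSO after LPS, against 164, 338, 559 and 530 under Midostaurin and 206, 328, 497 and 474 under X396. Both compounds lay at less than the lower DMSO library at all 4 times. The log2 differences were -0.97 (SE 0.18, adjusted p = 3.1e-05) and -1.08. Usp18 (chr6:121245060-121247959) differed by -0.96 under Midostaurin (SE 0.21, adjusted p = 0.00042) and -1.0 under X396, with 98, 146, 723 and 706 and with 69, 302, 540 and 562 against DMSO pairs of 190 and 204, 556 and 436, 1223 and 1217, and 1341 and 1309. Gbp2 (chr3:142617987-142622166) differed by -0.89 (SE 0.20, adjusted p = 0.00064) and -0.90. Ifih1, Usp18 and Gbp2 were the 3 genes that stayed called for Midostaurin after quantile normalization, at -0.66, -0.73 and -0.58.

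Under X396 the largest difference of this list, to which Isg15 and Ifit3 do not belong, was at Rtp4 (chr16:23609093-23612324), an interferon-induced gene, with 274, 394, 673 and 668 after LPS where DMSO held 581 and 643, 1224 and 1074, 1645 and 1739, and 1665 and 1472. Midostaurin gave 262, 665, 973 and 1080 at Rtp4. The 2 compounds held near values at 30 min and X396 was the lower at the other 3 times. The log2 differences from DMSO were -1.23 (SE 0.15, adjusted p = 3.3e-11) for X396 and -0.77 (SE 0.15, adjusted p = 0.00015) for Midostaurin. Oas2 (chr5:120749069-120750637), which encodes a sensor of double-stranded RNA, differed by -1.08 (SE 0.18, adjusted p = 2.1e-07) under X396 and -0.59 (SE 0.18, adjusted p = 0.0066) under Midostaurin.

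Other CKIs stood below DMSO at these genes too, with a median over CKIs of the list median of -0.35, -0.69, -0.69 and -0.55 at the 4 times after LPS. Against the other CKIs after LPS, 0 interferon-stimulated genes were called for Midostaurin, where 0% of all CREs were, and the list median was -0.09. For X396 3 of the list, which leaves out Isg15 and Ifit3, were lower, Isg20 (-0.57), Oas2 (-0.54) and Rtp4 (-0.51), where 2.64% of all CREs were, and the count was 1 without its LPS 1 h library, 0 after quantile normalization and 0 against its own run. By library, the list median of X396 relative to the DMSO mean was -0.63, -1.06, -0.97 and -1.05 at 30 min, 1 h, 2 h and 4 h of LPS, which ranked 9 of 58, 4 of 57, 13 of 55 and 6 of 55 from the lowest. That of Midostaurin was -0.67, -0.84, -0.70 and -0.50, which ranked 6, 14, 27 and 33. Midostaurin was therefore among the lowest CKIs at 30 min and in the middle of them at 2 h and 4 h, and X396 was among the 13 lowest at each time. X396 shared this place with its run of columns, in which it ranked 5, 2, 8 and 2 of 10 from the lowest. By the mean over the 4 times of LPS X396 ranked 5 of 58. All CKIs of its run lay between rank 2 (Filgotinib) and rank 15 (Apatinib). Both had the same direction already without a stimulus, with -0.16 for Midostaurin and -0.39 for X396 in UT cells, the latter number 3 from the lowest of 58. The median over CKIs was -0.23 in UT cells, and Midostaurin ranked 42 of 58 from the lowest there.

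**Figure D3:**
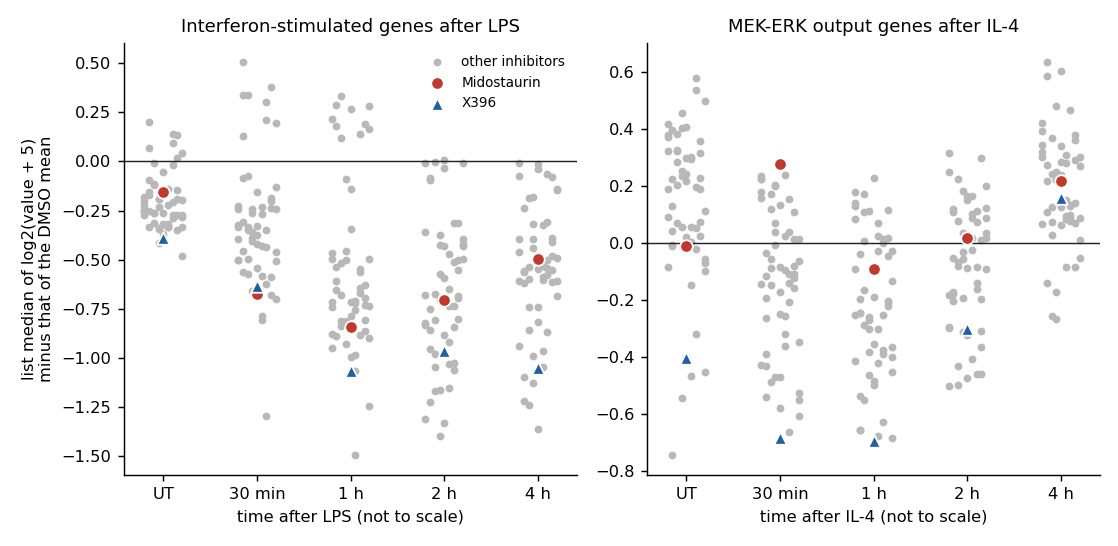
List median of log2(normalized read count + 5) minus that of the DMSO mean, for every inhibitor, with interferon-stimulated genes after LPS on the left and MEK-ERK output genes after IL-4 on the right; each point is 1 compound at 1 time and the line at 0 marks DMSO. X396 lies at -1.06 for the interferon genes at 1 h and at -0.68 and -0.70 for the MEK-ERK genes at 30 min and 1 h of IL-4, and Midostaurin at 0.28 for the latter at 30 min, the highest of 58.

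NF-kB targets, which LPS induces through a branch of its own, followed. Of 22 such genes after LPS, 4 were lower and 1 higher than DMSO under Midostaurin, and 9 were lower and 2 higher under X396, where 2.67% of all CREs were lower and 30.8% higher under Midostaurin, and 8.35% and 41.5% under X396. Nfkb1 (chr3:135688288-135692305), the gene of the p105 and p50 subunit, held 501, 759, 608 and 743 under Midostaurin and 539, 618, 545 and 717 under X396, where the DMSO pairs held 1097 and 1076, 1239 and 1171, 1121 and 1237, and 954 and 1060. The log2 differences of Nfkb1 were -0.69 (SE 0.14, adjusted p = 0.0002) and -0.71 (SE 0.14, adjusted p = 1.2e-05). Bcl2a1d (chr9:88731047-88734039), a gene of a survival factor with close copies among which reads could be split, differed by -0.78 and -0.93. After quantile normalization 0 of the 22 genes were called for either compound after LPS, and Nfkbia, which encodes the inhibitor of NF-kB, went from -0.54 under X396 to 0.0016. In the 10% of CREs with the highest DMSO level, to which Nfkb1 and Nfkbia belong, 39.1% were lower under X396 and 14% under Midostaurin, and 6.52% and 1.86% after quantile normalization.

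After IL-4 X396 was lower at several genes that are commonly read as output of the MEK-ERK cascade. This list of 22 genes was written after the values had been seen, so its counts describe these libraries and give no independent support. Against the other CKIs 9 of the genes were lower under X396 and 0 higher, where 2.17% of all CREs were lower and 21.4% higher, and the list median was -0.38 beside 0.25 over all CREs. The 9 were Spred1 (-1.84), Etv5 (-1.49), Myc (-1.10), Ccnd1 (-1.02), Spred2 (-0.91), Dusp5 (-0.76), Phlda1 (-0.72), Fos (-0.64) and Dusp6 (-0.61). The count was 8 or 9 with any X396 library left out, 11 after quantile normalization and 3 against the run of X396, where 0.409% of all CREs were lower.

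Myc (chr15:61982644-61990162), a growth regulator whose acetylation rises with IL-4, held 1237 and 1110, 1204 and 1135, 911 and 1007, and 605 and 574 in the DMSO pairs at 30 min, 1 h, 2 h and 4 h of IL-4. X396 gave 430, 407, 292 and 216, and it was the lowest of all CKIs at 2 h and 4 h. Midostaurin gave 1103, 931, 555 and 369. X396 stood below both UT values of DMSO, 581 and 669, throughout, while Midostaurin was close to the lower DMSO value at 30 min and further below both at the later times. The log2 difference of X396 at Myc was -1.49 from DMSO (SE 0.16, adjusted p = 1.7e-15), -1.10 from the other CKIs (adjusted p = 1.2e-11) and -0.73 from its run (adjusted p = 0.00055).

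Etv5 (chr16:22438840-22440824), an ETS factor and a common target of ERK signalling, held 352 and 350, 378 and 319, 325 and 322, and 152 and 215 in DMSO after IL-4. X396 gave 75, 65, 73 and 62, the lowest of the CKIs at 1 h, 2 h and 4 h, and Midostaurin 407, 268, 193 and 200. The log2 difference of X396 at Etv5 was -1.93 from DMSO (adjusted p = 4.3e-14), -1.49 from the other CKIs (SE 0.18, adjusted p = 3e-11) and -0.87 from its run (adjusted p = 0.0042). The difference was present in UT cells, where DMSO held 259 and 287 and X396 84. After LPS it was not seen in the average (0.01, adjusted p = 0.99), where X396 gave 147, 171, 57 and 145 at Etv5 and DMSO 81 and 87, 101 and 62, 81 and 73, and 111 and 135.

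Spred1, an inhibitor of RAS and RAF signalling that ERK activity induces, was measured at a CRE in its first kilobases (chr2:117122094-117123993, centre 1405 bp from the start, intronic). DMSO held 296 and 310, 240 and 265, 161 and 194, and 96 and 110 after IL-4, Midostaurin 149, 103, 57 and 40, and X396 62, 83, 24 and 0. In this 4 h library 3 reads are worth 46.2, so the value of 0 allows a level of up to 46.2. X396 was the lowest of the CKIs at Spred1 in UT cells and at 2 h and 4 h of IL-4. Its log2 difference was -2.81 from DMSO (adjusted p = 1.5e-19), -1.84 from the other CKIs (SE 0.21, adjusted p = 6.3e-12) and -1.33 from its run (adjusted p = 7.7e-05). Midostaurin was also lower than DMSO at Spred1, by -1.16 after IL-4 (adjusted p = 0.00088) and -1.0 after LPS (adjusted p = 0.00049), and both calls held after quantile normalization, at -0.99 and -0.73. Against the other CKIs Midostaurin did not pass at Spred1 (-0.16 and -0.06).

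Fos (chr12:85471460-85475420), the immediate early subunit of AP-1, held 495 and 414, 442 and 377, 302 and 299, and 219 and 231 in DMSO after IL-4. X396 gave 187, 240, 146 and 262, below DMSO at the first 3 times and above it at 4 h. Midostaurin gave 564 at 30 min, the highest of the 58 CKIs, and then 380, 349 and 377. The log2 difference of X396 at Fos was -0.77 from DMSO (adjusted p = 5e-08) and -0.64 from the other CKIs (adjusted p = 1.1e-06), and at -0.47 it was not past 0.5 against its run (adjusted p = 0.0094).

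The feedback genes Dusp5, an ERK phosphatase, and Spred2, a relative of Spred1, were low early as well. Dusp5 (chr19:53528129-53529923) held 111 and 115, 100 and 103, 72 and 93, and 81 and 102 in DMSO after IL-4, and X396 gave 31, 18, 81 and 154. In the X396 libraries of 30 min and 1 h a read is worth 6.23 and 9.24, so 31 and 18 rest on few reads. The log2 difference of X396 at Dusp5 was -0.76 from the other CKIs (adjusted p = 0.00029) and -0.58 from the run (adjusted p = 0.050). Spred2 (chr11:19923288-19926965) held 428 and 527, 429 and 317, 313 and 279, and 169 and 178 in DMSO and 100, 185, 146 and 123 under X396, a log2 difference from the other CKIs of -0.91 (adjusted p = 0.00039) that did not pass against the run (-0.52, adjusted p = 0.16). Both genes stood furthest below DMSO in the first hour, and at 4 h Dusp5 was above both DMSO libraries while Spred2 was still below them.

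**Figure D4:**
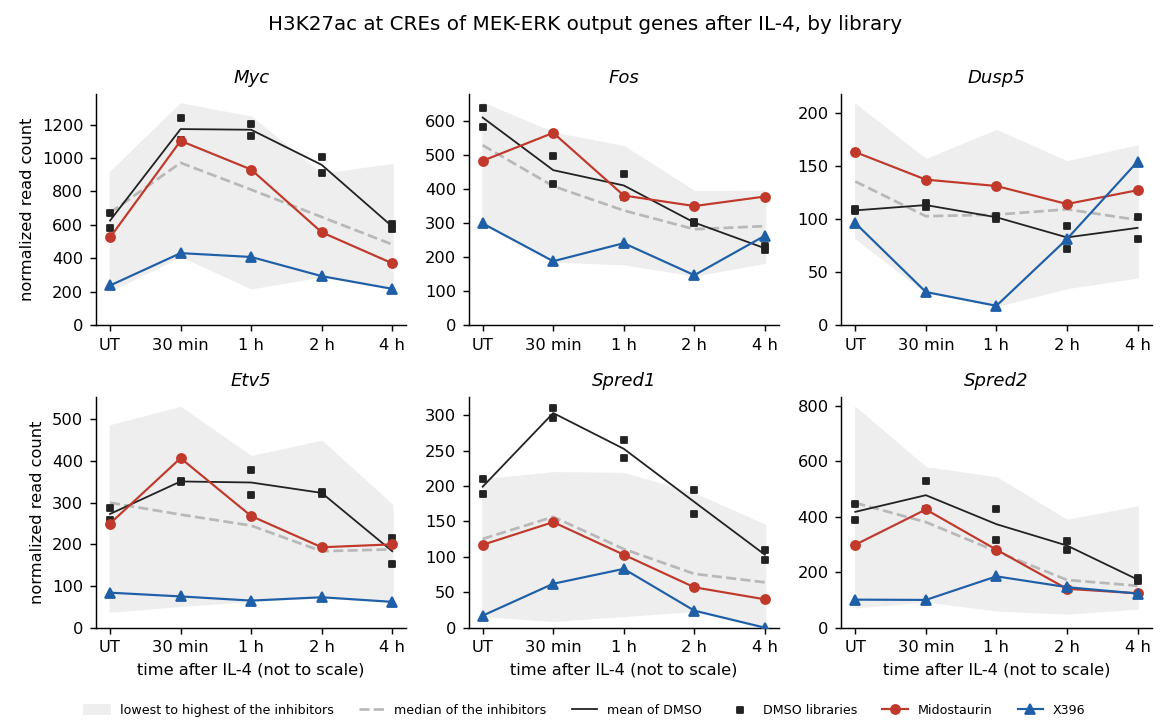
Normalized read count of 6 MEK-ERK output genes in UT cells and at 4 times after IL-4, with time on a category axis. Black squares are single DMSO libraries and the black line their mean, the grey band spans the lowest to the highest of the inhibitors and the dashed line their median; X396 holds 430, 407, 292 and 216 at Myc and 75, 65, 73 and 62 at Etv5, along the lower edge of the band.

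The list median of X396 relative to DMSO was -0.40 in UT cells (6 of 58 from the lowest), -0.68 at 30 min of IL-4 and -0.70 at 1 h (the lowest of 58 at both), -0.30 at 2 h (13 of 56) and 0.16 at 4 h (27 of 55). The margins at 30 min and 1 h were small: Apatinib had -0.66 and TG100115 -0.61 at 30 min, and Vatalanib and MK2461 both had -0.68 at 1 h. As the mean over the 4 times of IL-4, X396 had -0.38 and ranked 7 of 58 from the lowest. All CKIs ranked 1 to 13 by this mean stand in run 1 or 2 of the columns, and X396 stands in run 1. Of the inhibitors that the series directs at MEK or ERK, Pimasertib had -0.55 at 30 min of IL-4 (5 of 58 from the lowest), -0.40 at 1 h and, at 2 h, -0.31 (12 of 56), 1 place below X396. The others were nearer to 0, with -0.21 for Selumetinib, -0.19 for Refametinib, -0.14 for GDC0994 and 0.02 for Ulixertinib at 30 min, and -0.39, -0.25, -0.25 and 0.07 at 1 h. Each of these is 1 library, and no difference between CKIs was tested here. After LPS the list median of X396 was -0.28, 0.02, 0.18 and 0.09, and 2 of the 22 genes were lower against the other CKIs, Egr2 (-0.56) and Dusp5 (-0.53), where 2.64% of all CREs were. The count was 0 after quantile normalization and 0 against the run. Across all 293 CREs whose nearest start belongs to 1 of these genes, 38 were lower and 37 higher under X396 than under the other CKIs after IL-4. That split was 76 and 7 after quantile normalization, and 7 and 1 against the run.

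The place of Midostaurin among the CKIs at these genes varied by library. Its list median was the highest of the CKIs at 30 min of IL-4 (0.28) and at 4 h of LPS (0.55), and ranked 51 of 57 from the lowest at 1 h of LPS (0.45). In the other 6 libraries it lay at -0.09 to 0.22 and ranked 15 of 58 in UT cells, 37 of 58 and 23 of 55 at 30 min and 2 h of LPS, and 38 of 58, 35 of 56 and 29 of 55 at 1 h, 2 h and 4 h of IL-4. Against DMSO after LPS 6 of the 22 genes were higher and 1 lower, with Spry1 at 1.48, Etv4 at 1.07, Spry4 at 0.95, Fosl1 at 0.90, Epha2 at 0.89 and Phlda1 at 0.52, where 30.8% of all CREs were higher, and 0 were higher after quantile normalization. After either stimulus 0 were called against the other CKIs. The 20 immediate early genes share members with this list. Their list median under Midostaurin was 0.43 at 4 h of LPS, the highest of 55 CKIs, and 0.26 at 30 min of IL-4, 57 of 58 from the lowest. It was 0.33 at 2 h of IL-4 (54 of 56), 0.0047 in UT cells (18 of 58), -0.24 at 30 min of LPS (29 of 58) and -0.06 at 2 h of LPS (22 of 55), so it was high in some libraries and in the middle or lower in others. In the test 1 of them was higher than DMSO after LPS, Fosl1 (chr19:5446944-5449646), which encodes the AP-1 subunit FRA1. Fosl1 held 226, 253, 79 and 146 under Midostaurin and 135 and 168, 127 and 133, 45 and 39, and 76 and 67 in DMSO (log2 difference 0.90, SE 0.23, adjusted p = 0.002), and 0.19 against the other CKIs (adjusted p = 1).

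The targets of IL-4 and STAT6 were measured at 21 of 24 genes. Relative to DMSO after IL-4, 5 were lower under X396 and 3 higher, where 5.38% and 54.5% of all CREs were, and 0 were lower and 1 higher under Midostaurin, where 1.9% and 13% were. In the 10% of CREs with the highest DMSO level 21.7% were lower and 2.81% higher under X396. Under Midostaurin 6.64% and 1.27% were. How many genes of this list lie in that 10% was not counted. After quantile normalization 4 were lower and 2 higher under X396, where 12.4% and 10.1% of all CREs were. Arg1 (chr10:24926716-24929154), the arginase gene that is a hallmark of IL-4 activation, held 692 and 604, 654 and 656, 671 and 747, and 617 and 564 in DMSO, 324, 296, 333 and 262 under X396, and 530, 526, 421 and 383 under Midostaurin. All 8 values were under both DMSO libraries of their time. At Arg1 the log2 difference was -0.99 for X396 (SE 0.16, adjusted p = 1.2e-08) and -0.42 for Midostaurin (adjusted p = 0.047, not past 0.5). X396 differed from the other CKIs by -0.44 at Arg1 (adjusted p = 0.0077), which is also not past 0.5, and Midostaurin by 0.15. Mgl2 (chr11:70128439-70130892), a lectin gene, differed by -0.66 under X396 (SE 0.15, adjusted p = 7e-05), with 318, 194, 276 and 339 against DMSO pairs of 564 and 524, 487 and 499, 430 and 486, and 480 and 461.

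The chemokine genes Ccl22 and Ccl17 were higher under X396 than in DMSO after IL-4, from very low levels. Ccl22 (chr8:94744774-94746397) held 10 and 12, 16 and 3, 4 and 6, and 10 and 5 in DMSO, and 31, 65, 73 and 108 under X396 (log2 difference 2.28, SE 0.33, adjusted p = 1.6e-09). Ccl17 (chr8:94811138-94813757) held 8 to 26 in DMSO and 75, 74, 106 and 154 under X396 (1.98, SE 0.28, adjusted p = 8.9e-10). In the X396 libraries of IL-4 a single read is worth 6.23, 9.24, 8.12 and 15.4 at the 4 times, so these values rest on few reads. The differences from the other CKIs at Ccl22 and Ccl17 were 0.88 and 0.82, and neither was called after quantile normalization (0.40 and 0.52) or against the run (0.33 and 0.65).

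Some genes that LPS induces were also higher under X396 after IL-4, in a share near that of all CREs. In the interferon beta axis 4 of 8 genes were higher than DMSO, where 54.5% of all CREs were, Cxcl11 (2.09), Ccl5 (1.82), Cxcl10 (1.64) and Ifnb1 (1.62), and Ifit3 was lower (-1.76). After quantile normalization 2 of the 8 were higher and 2 lower. Ccl5 (chr11:83529723-83537515), a chemokine gene, held 87 and 80, 74 and 87, 47 and 69, and 88 and 86 in DMSO after IL-4, 249, 333, 300 and 354 under X396, and 147, 140, 150 and 129 under Midostaurin. Both compounds stood above DMSO at each time, and Midostaurin stood below the CKI medians of 183.5, 183, 167.5 and 173. Ccl5 differed from DMSO by a log2 value of 1.82 for X396 (SE 0.21, adjusted p = 1.5e-13) and 0.89 for Midostaurin (SE 0.21, adjusted p = 0.0016). From the other CKIs it was 0.69 for X396 (adjusted p = 0.0021) and -0.25 for Midostaurin (adjusted p = 0.37), and 0.48 for X396 against its run (adjusted p = 0.14).

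Ifit3 stood against this direction. Its DMSO libraries held 127 to 210 after IL-4, and X396 gave 75, 28, 65 and 31, with 45 in UT cells where DMSO held 203 and 164. In the X396 libraries of 1 h and 4 h a read is worth 9.24 and 15.4, so 28 and 31 rest on few reads. Ifit3 was lower under X396 by -1.76 against DMSO (SE 0.24, adjusted p = 1.1e-10), by -1.49 against the other CKIs (SE 0.20, adjusted p = 8e-10) and by -1.12 against the run (adjusted p = 0.00028). Midostaurin held 207, 152, 131 and 140 at Ifit3 after IL-4 and did not differ by the test from DMSO (-0.10, adjusted p = 0.79).

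Of the 22 NF-kB targets 7 were higher and 2 lower than DMSO under X396 after IL-4, led by Il12b (2.06), Cxcl1 (1.59), Cxcl2 (1.40) and Il1b (1.24), and 0 were called against the other CKIs. Over all CREs 54.5% were higher and 5.38% lower, and the list median was 0.04 beside 0.71 over all CREs, so the list as a whole was not higher than the rest of the table. Under Midostaurin 3 of 22 were higher than DMSO, Il12b (0.97), Il1b (0.91) and Cxcl2 (0.85), and Tnip3 was lower (-0.65), where 13% of all CREs were higher and 1.9% lower. A single comparison with the other CKIs called an NF-kB target for Midostaurin, 1 gene after IL-4, where 0.314% of all CREs were. This was Tnfaip3 (chr10:18997399-19013563), which encodes A20, an enzyme that ends NF-kB signalling. Midostaurin held 374, 352, 296 and 310 at Tnfaip3 after IL-4, close to the DMSO pairs of 406 and 496, 350 and 401, 353 and 397, and 383 and 335, while the medians of the CKIs were 583, 546.5, 506.5 and 506. Its values ranked 1 of 58, 3 of 58, 2 of 56 and 3 of 55 from the lowest. Tnfaip3 had a log2 difference of -0.59 from the other CKIs (SE 0.14, adjusted p = 0.014) and -0.48 from the run (adjusted p = 0.32), and it was 0.93 above DMSO for X396 (SE 0.17, adjusted p = 3.5e-07).

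The genes of the intended targets were examined too. Tbk1 (chr10:121585226-121588386) held 904 and 1000, 970 and 934, 1350 and 1336, and 1141 and 1024 in DMSO after LPS, 519, 728, 704 and 752 under Midostaurin, and 686, 539, 583 and 542 under X396. The log2 difference from DMSO at Tbk1 was -0.64 for Midostaurin (SE 0.15, adjusted p = 0.00063) and -0.74 for X396 (SE 0.15, adjusted p = 1e-05). The values against the other CKIs were 0.06 and -0.04, and those against DMSO after quantile normalization were -0.28 and -0.16, none of them called. Acetylation at the gene says nothing of the activity of the kinase. Of the 6 genes listed for X396, 4 had a CRE and Ltk and Ros1 had none, and Map3k1 and Map4k2 were not called in any comparison of X396 with the deposited scaling, Map3k1 being lower than DMSO after LPS with quantile normalization (-0.90). Of the 15 genes listed for Midostaurin, 1 was lower than DMSO after LPS, Tbk1, where 2.67% of all CREs were. Flt3 (0.84) was the 1 higher after LPS, where 30.8% of all CREs were, and Pdgfrb (1.31) the 1 higher after IL-4, where 13% were. Against the other CKIs 0 were called. Alk (chr17:72604015-72605576) held 0 to 8 in DMSO and 78, 79, 19 and 39 under X396 after LPS, a log2 difference of 2.74 from DMSO (adjusted p = 1.1e-07), of 1.12 from the other CKIs (adjusted p = 0.045) and of 0.70 from the run (adjusted p = 0.55). In these 4 libraries a read is worth 9.80, 13.1, 4.78 and 9.68, so the Alk values stand for few reads. Of the 4 genes with a CRE, 1 (Alk) was higher than DMSO after LPS, where 41.5% of all CREs were. It was also the 1 higher than the other CKIs, where 1.28% were.

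Over all CREs, Midostaurin differed from DMSO at 19829 of 59163 CREs in the LPS comparison (33.5%), 18251 of them higher, and at 8812 of 59147 in the IL-4 comparison (14.9%), 7688 of them higher. The counts for X396 were 29478 after LPS (49.8%) and 35391 after IL-4 (59.8%), with 24536 and 32211 of them higher. The directions changed with the scaling. After quantile normalization the counts for Midostaurin were 757 (1.28%, with 294 or 0.497% higher and 463 lower) after LPS and 884 (1.49%, with 387 or 0.654% higher and 497 or 0.84% lower) after IL-4. Those for X396 were 6519 (11%, with 2929 or 4.95% higher and 3590 lower) and 13318 (22.5%, with 5984 or 10.1% higher and 7334 or 12.4% lower). Rescaling each library by its median ratio kept the size of the counts but not the split, with 8711 higher and 10821 lower for Midostaurin after LPS and 5119 and 5267 after IL-4, and 15004 and 18871, and 20130 and 19835, for X396. The deposited scaling set the median CRE 0.42 and 0.29 above DMSO for Midostaurin and 0.44 and 0.71 above it for X396 on the log2 scale. The calls followed the level of the CRE: in the 10% with the lowest DMSO level 95.4% of CREs were higher under X396 after LPS and 98.4% after IL-4, and 86.7% and 29.2% under Midostaurin. In the order of the 58 CKIs by calls against DMSO, most first, X396 stood at 14 (LPS) and 3 (IL-4) and Midostaurin at 37 and 50.

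With the other CKIs as the reference limma called 0 of 59163 CREs for Midostaurin after LPS, with 1841 (3.11%) at an unadjusted p under 0.05, and 17 of the 58 CKIs had a count of 0 in this comparison. After IL-4 it called 186 CREs for Midostaurin, 69 higher (0.117%) and 117 lower (0.198%), and 48 after quantile normalization (0.0811%, with 0.0507% higher and 0.0304% lower). For X396 it called 2318 after LPS (3.92%), 758 higher (1.28%) and 1560 lower, and 13957 after IL-4 (23.6%), 12671 higher and 1286 lower. With quantile normalization it called 2640 after LPS (4.46%, with 1.38% higher and 3.08% lower) and 7066 after IL-4 (11.9%), and the last split became 2846 (4.81%) and 4220 (7.13%). Rescaled by the median ratio it was 5826 and 6008, the split of X396 after LPS was 961 and 2804, and that of Midostaurin after IL-4 was 894 higher and 234 lower. Against the run alone the counts were 14 for Midostaurin after IL-4 (0.0237%), and 134 (0.226%, with 0.0287% higher) and 688 (1.16%, with 0.754% higher) for X396. The IL-4 4 h library of X396 had the lowest contrast of its 9, 5.47, and the sole highest value of 55 CKIs at 11.8% of CREs, where an equal share would be 1.82%.

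Single libraries moved these counts. Against the other CKIs the X396 count after IL-4 was 5074 without its 4 h library and 8102 without its 1 h library, and the count after LPS was 1373, 1036 and 1444 without its 30 min, 1 h or 4 h library. The Midostaurin count after IL-4 was 935 without its UT library and 48, 58, 28 and 20 without its 30 min, 1 h, 2 h or 4 h library. Against DMSO after LPS, Midostaurin had 11381 calls without its 30 min library and 11254 without DMSO replicate 2. After IL-4 it had 3763 without its UT library, 5296 without its 2 h library, and 3854 and 3461 without DMSO replicate 1 or 2. The counts of X396 against DMSO ranged from 24519 to 28659 after LPS and from 33228 to 35840 after IL-4, with the omission of a DMSO replicate included. Leaving out a DMSO replicate takes out all DMSO libraries of that number, and the 24519 came without replicate 2.

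**Figure D5:**
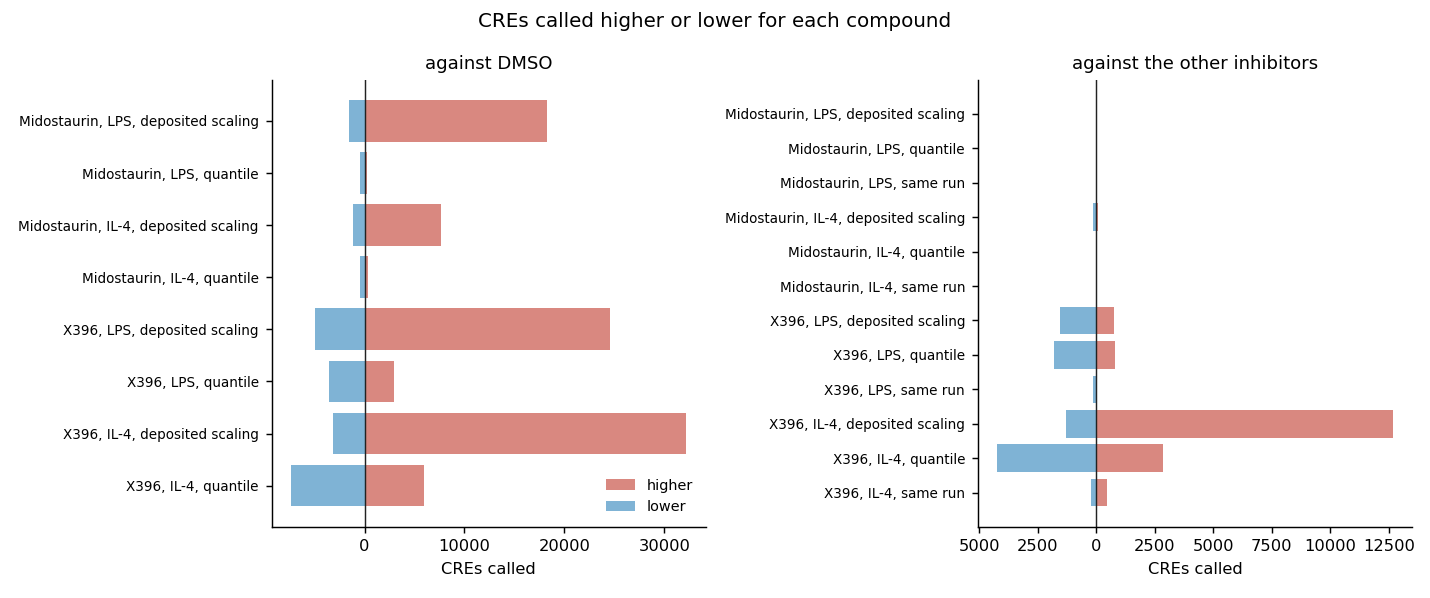
CREs called higher (right of 0) or lower (left of 0), for each compound and stimulus, against DMSO on the left and against the other inhibitors on the right, with the deposited scaling, after quantile normalization and, on the right, against the inhibitors of the same run of columns. X396 after IL-4 goes from 12671 higher and 1286 lower to 446 and 242 within its run.

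The largest differences from DMSO included CREs that both compounds shared. The CRE at chr10:3110992-3117821, intergenic and 153344 bp from the start of H60c, held 5 to 74 in the DMSO libraries, 268 to 4103 under Midostaurin and 2011 to 5743 under X396. Another at chr7:88254291-88255915, 22982 bp from the start of Ctsc, held 61 to 158 in DMSO, 2 to 43 under Midostaurin and 0 to 31 under X396. The medians of the CKIs were 1653.5 after LPS and 1354 after IL-4 at the first and 21 and 20 at the second, so the other CKIs stood on the same side. In 6 CREs after LPS and 16 after IL-4, every library of every CKI was above every DMSO library.

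Calls against the other CKIs were also counted where they held against the run alone, after quantile normalization and with each library of the compound left out in turn. There were 0 for Midostaurin after LPS, 8 after IL-4 (all higher), 40 for X396 after LPS (3 higher, 37 lower) and 379 after IL-4 (262 higher, 117 lower). For Midostaurin the leading one was an intergenic CRE 29981 bp from the start of Egfl7 (chr2:26549239-26550827). It held 158, 199, 269 and 305 after IL-4, against DMSO pairs of 61 and 42, 36 and 50, 52 and 51, and 49 and 78 and CKI medians of 89, 84.5, 77.5 and 123, and Midostaurin was the highest CKI at all 4 times. In UT cells it held 210 and DMSO 106 and 124. The log2 difference from the other CKIs was 1.19 (SE 0.19, adjusted p = 2.9e-05), and from the run 1.07. A CRE 102647 bp from Tmsb4x (chrX:167105406-167106954) held 116, 130, 148 and 137 after IL-4 under Midostaurin where DMSO held 42 to 80, and 169 in UT cells where DMSO held 118 and 117, a difference of 0.99 from the other CKIs (SE 0.19, adjusted p = 0.00091). Among the other 6 were introns of Snrnp70 (0.94), of Ahrr, the repressor of the aryl hydrocarbon receptor (0.86), and of Smg6 (0.82).

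For X396 after IL-4 1 of the lowest of these CREs lay 197391 bp from the start of Gsdmc (chr15:63610584-63612152). After IL-4 it held 337 and 346, 255 and 285, 206 and 290, and 189 and 159 in DMSO, and 79 and 83 in UT cells. X396 gave 0 in UT cells and 25, 46, 41 and 0 after IL-4, and Midostaurin 144, 136, 70 and 40. In the UT and IL-4 4 h libraries of X396 3 reads are worth 16.9 and 46.2, so the values of 0 allow levels up to these. A read is worth 6.23, 9.24 and 8.12 at the other times, so 25, 46 and 41 rest on few reads. The log2 difference of X396 was -2.26 from the other CKIs (SE 0.27, adjusted p = 1.2e-11) and -1.55 from the run. Spred1, Ifit3 and Etv5 were among the other low ones, as was an intron of Cd36 (chr5:17876043-17877733), the scavenger receptor gene, at -1.54 (SE 0.27, adjusted p = 6.7e-06), and -1.35 against the run. Of the 379 CREs 47 were promoters, 172 intronic, 144 intergenic and 16 exonic. Of all 59147 CREs tested after IL-4, 12864 were promoters, 23459 intronic, 20808 intergenic and 2016 exonic. After LPS the 40 included the promoter of Dynlt1b (-1.39, and -0.96 against the run), an intron of Foxo1 (-0.91 and -0.92) and, among the 3 that were higher, an intron of Crlf3 (0.95). The CREs near Egfl7, Tmsb4x, Gsdmc and Spred1 were named by the rule for CREs, and Etv5 and Ifit3 are members of the lists. The remaining CREs named from these calls were picked after their values had been seen.

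A CRE in an intron of Lama1 (chr17:67740651-67742263), a laminin gene, was low under Midostaurin and high under X396. After IL-4 Midostaurin held 73, 28, 55 and 17 there and X396 231, 906, 698 and 1263, with CKI medians of 134, 128, 108.5 and 107 and DMSO libraries of 18 to 47. It was the lowest CRE of Midostaurin by the naming rule (-1.50 from the other CKIs, SE 0.27, adjusted p = 0.00034) and among the highest of X396 (1.97, SE 0.27, adjusted p = 6.2e-09). X396 ranked highest of the CKIs at 1 h, 2 h and 4 h, and its value at 4 h came from the library of lowest contrast. Neither call held against the run (-0.84 and 0.53).

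The stimuli could be told apart under both compounds. CREs that DMSO libraries show as higher after LPS or after IL-4 kept the direction of the label in each of the 16 stimulated libraries. The gap between the 2 sets after IL-4 was -1.29, -1.59, -1.80 and -1.67 on the log2 scale under Midostaurin at the 4 times, and -1.03, -0.85, -1.13 and -0.68 under X396, whose gaps ranked 27 of 58, 6 of 58, 4 of 56 and 3 of 55 from the smallest. Relative to the UT library of the same compound, the 3416 CREs that rise early with IL-4 in DMSO had median log2 changes of 0.69, 0.63, 0.25 and -0.15 under Midostaurin, which ranked 4 of 56 from the lowest of the CKIs at 2 h and 2 of 55 at 4 h. The sets were chosen on the DMSO libraries, so the changes in DMSO are fixed by the choice and are not compared with these. The changes also rest on 1 UT library, which had a contrast of 17.9 and a median CRE 0.49 above DMSO, where the IL-4 4 h library had 55 and 0.10, and the part of this in the ranks was not tested. In the fit over the course this set differed from the other CKIs by a median of -0.20 beside -0.18 over all CREs, and by -0.03 after quantile normalization. Under X396 the 4217 CREs that fall late with IL-4 changed by -0.24, -0.02, -0.35 and -0.13. X396 ranked 57 of 58, 56 of 56 and 54 of 55 from the lowest at 1 h, 2 h and 4 h, so this set fell less than under nearly all CKIs. The contrast of X396 was number 2 from the lowest of the CKIs, and its part in these medians was not tested.

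All 12 macrophage marker genes had a CRE. Midostaurin differed from DMSO at 0 of them, and X396 was lower at 3 after LPS, where 8.35% of all CREs were, Fcgr1 (-0.81), Spi1 (-0.61) and Csf1r (-0.52), and at Fcgr1 (-0.60) and Itgam (-0.58) after IL-4, where 5.38% of all CREs were lower. Cebpb was higher after IL-4 (0.60). In the 10% of CREs with the highest DMSO level, to which Spi1 belongs, 39.1% were lower under X396 after LPS and 21.7% after IL-4. After quantile normalization 0 of the 12 were lower under X396 after either stimulus. Spi1 (chr2:91079987-91085607), the gene of the macrophage master regulator PU.1, held 1016 to 2387 under Midostaurin, 951 to 1730 under X396 and 1573 to 2625 in DMSO. For either compound 0 of the 12 were called against the other CKIs. Of 18 markers of other cell types 7 had a CRE, and 0 were called against the other CKIs, while against DMSO after LPS 3 were higher under Midostaurin (Pax5 1.86, Col1a1 1.00, Elane 0.85) and 3 higher and 2 lower under X396, where 30.8% of all CREs were higher under Midostaurin and 41.5% higher and 8.35% lower under X396. Of 8 control genes B2m was lower than DMSO after LPS under Midostaurin (-0.56) and X396 (-0.68), and Actb under X396 (-0.58), and Rplp0 was lower under X396 after IL-4 against DMSO (-0.56) and the other CKIs (-0.61). These counts of 0 to 2 among 8 stand beside 2.67% of all CREs lower under Midostaurin after LPS, and 8.35% and 5.38% under X396 after LPS and IL-4. In the 10% with the highest DMSO level these 3 shares were 14%, 39.1% and 21.7%. Of 12 stress genes Asns was lower against the other CKIs under Midostaurin after IL-4 (-0.78) and Trib3 under X396 after LPS (-0.62), where 0.198% and 2.64% of all CREs were lower.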

How the data were processed

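H3K27ac ChIP-seq libraries of BMDMs were analysed from the table that the authors deposited, in which each value is a score: a normalized read count per CRE that the authors had rounded to whole numbers. Bowtie, SAMtools and the mm10 build are named in the submitters' processing notes. Each library name in the table was matched to its title. The table has 1 column of no sample, which holds the position. Since the values are not raw counts, a count model was not used.

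CREs with a mean of at least 10 over the libraries fitted were tested with limma 3.58.1 (R 4.3.3) on log2(value + 5), with compound and time as factors, in the LPS and UT libraries or the IL-4 and UT libraries of all compounds, which share 1 estimate of the spread. The other CKIs of Midostaurin include X396 and the reverse. Calls needed an adjusted p below 0.05 together with a log2 difference over 0.5 in size. On simulated data with 100 changed CREs of each size, 45 to 64 of those changed by 1 on the log2 scale and 94 to 100 of those changed by 2 were recovered, with 5 to 10 false calls among 59163 CREs. The simulated libraries had time means and independent noise, without the differences in depth, contrast or run of the real ones. Their false calls are therefore no measure of error in these data. Tables were made with Python 3.11.15. Genes were placed with GENCODE vM21.

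The spacing of the values gave the worth of 1 read, and none was found in 13 libraries. Floors of 3 reads cover counting error only. Contrast ranks CREs by their mean over the libraries. The DMSO replicate numbers do not pair the libraries (see the closing section for the check). The runs of columns follow the order of the table, and the labels name no batch.

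Genes with values are members of fixed lists, the largest differences among those called first. CREs named by position are the 3 highest and 3 lowest called in each comparison at a mean of at least 50. The members and lists were chosen with earlier results of these data known, and the MEK-ERK list after its values were seen. Alternatives were pseudocounts of 1 and 20, no filter, quantile normalization, rescaling by the median ratio, stimulated libraries only, a log2 threshold of 1, libraries left out, the run of columns as reference, and a fit of the compound and DMSO only.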

Additional observations from a re-analysis of the deposited data

Results flagged for a closer look

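At some genes every library of a compound stood on 1 side of the DMSO mean after LPS and on the other side after IL-4. The 4 libraries of a stimulus are different times and not replicates, and the differences between the stimuli were not tested.

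Under X396, 4 genes of inflammation and the interferon axis were below DMSO at each time after LPS and above it at each time after IL-4, with a mean log2 difference after LPS minus that after IL-4 of -2.82 at Ccl5, -2.34 at Cxcl2, -2.32 at Cxcl10 and -1.54 at Tnfaip3. Ifit2 (-1.29), Dusp2 (-1.35) and Relb (-0.68) went in the same direction. Under Midostaurin this held at Ccl5 (-1.41), Ifnb1 (-1.09), Relb (-0.60), Junb (-0.56) and Isg20 (-0.52). At Ccl5 the mean log2 difference was -0.89 after LPS and 1.94 after IL-4 under X396, and -0.56 and 0.85 under Midostaurin. In DMSO these genes were high after LPS and low after IL-4, so both compounds stood nearer to the middle of the DMSO values. The CKIs as a group went the same way in the interferon beta axis. There the median over CKIs of the list median was -0.33, -0.57, -0.68 and -0.49 at the 4 times after LPS. After IL-4 it was 0.30, 0.46, 0.46 and 0.47.

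The IL-4 target Mgl2 was above DMSO after LPS and below it after IL-4 under both compounds, by 1.28 under Midostaurin and 1.85 under X396, and so was Il1rl2 under X396 (1.12). For the list of IL-4 and STAT6 targets the median over CKIs was 0.21, 0.17, 0.14 and 0.24 after LPS. After IL-4 it was -0.06, -0.13, -0.10 and -0.02. The contrast of every X396 library was below that of every DMSO library, and its part in these values was not tested.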

How the results depend on the processing

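Of the values of named genes and CREs recomputed under the alternatives, 1751 kept their direction and their side of the threshold, 318 kept the direction only and 3 changed sign, all under X396 against DMSO with quantile normalization: Nfkbia after LPS (0.0016), Il1rl2 after LPS (-0.054) and Egr3 after IL-4 (-0.36).

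Quantile normalization changed the counts of calls to 757 and 884 for Midostaurin against DMSO after LPS and IL-4, 48 against the other CKIs after IL-4, 6519 and 13318 for X396 against DMSO, and 7066 against the other CKIs after IL-4. A log2 threshold of 1 gave 11697, 3867 and 58 for Midostaurin and, for X396, 18434 against DMSO after LPS and 588 and 3737 against the other CKIs after LPS and IL-4. The run as reference gave 14 for Midostaurin after IL-4 and 134 and 688 for X396. Rescaling by the median ratio gave 1128 for Midostaurin after IL-4 and 3765 for X396 after LPS, both against the other CKIs. With stimulated libraries only, Midostaurin had 4036 after IL-4 against DMSO and 608 against the other CKIs. Pseudocounts of 1 and 20 gave 285 and 111 for the latter, and 20 gave 4234 for the former, which was 14352 with the compound and DMSO alone in the fit. Libraries of the compound were left out 1 at a time, and against DMSO also all DMSO libraries of 1 replicate number. Midostaurin then had 11254 to 21225 and 3461 to 8010 calls against DMSO after LPS and IL-4, and 0 and 20 to 935 against the other CKIs. X396 had 24519 to 28659 and 33228 to 35840 against DMSO, and 1036 to 2763 and 5074 to 16657 against the other CKIs. The counts of 11254, 3461 and 24519 came without DMSO replicate 2. The cause was not tested.

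The DMSO replicate numbers did not pair libraries: over 36 pairs of groups the correlation of deviations was -0.15 to 0.16 (median 0.01), over 0.1 in 2. With the replicate number as a block the counts were 19769 and 8762 for Midostaurin against DMSO, 0 and 182 against the other CKIs, 29458 and 35385 for X396 against DMSO, and 2289 and 13906 against the other CKIs. Depth limits what can be seen under X396, whose reads in CREs were 0.569 to 1.31 M per library.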
